A study of Mus musculus with 6 samples.

Results

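The genes described here are 10 transcription factors that pattern the hypothalamus: Nkx2-1, Nkx2-4, Nkx2-2, Foxb1, Six3, Six6, Rax, Sim1, Otp and Lhx2. They were taken by name from a table of 22048 genes, 21781 of which could be given a symbol, and each of the 10 was present under 1 Ensembl identifier. RNA-Seq was performed on neurospheres, the floating spheres that neural stem and progenitor cells (NSC/NPCs) form in culture, grown from the hypothalami of male C57BL/6 fetuses isolated at E14.5 and collected at first passage. In the prenatal high estradiol (HE) group the dams, mated at 8 weeks of age, were gavaged with estradiol valerate (100 μg/kg/d) between E5.5 and E11.5. In the control (NC) group the dams received the corn oil solvent according to the methods, while the sample labels call these samples untreated. Each group had 3 samples of cells from 2 mice each, no genetic change is named for either group, and all cells had grown in medium with EGF and bFGF before RNA was taken. Neurospheres in such medium are a culture of the dissected region, so the levels below describe cultured progenitors and their progeny rather than the fetal hypothalamus itself.

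The hypothalamus is laid out early in the forebrain by transcription factors that are switched on in separate territories. Six3 and Rax act in the anterior neural plate and eye field, Nkx2-1 is induced by Shh in the ventral hypothalamus, and Foxb1 marks the mamillary region at its caudal end. Sim1 and Otp act later, in the lineages of the paraventricular and supraoptic nuclei, and Lhx2 is used in the eye, cortex and hypothalamus, where it is needed for tanycytes, the radial glia-like cells lining the third ventricle.

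None of the 10 factors passed the test for a difference between HE and NC. The point estimates went in opposite directions: Nkx2-4, Nkx2-2, Foxb1 and Six6 were higher in every HE sample than in every NC sample, and Nkx2-1, Six3 and Lhx2 were lower on average in HE with overlapping samples. Of all tested genes, 14.8% were likewise higher in every HE sample, and Six6 had the same 12 reads in NC1 and HE1. Rax, Sim1 and Otp were at or near 0. These are bulk samples, so fewer cells of a type and less RNA per cell cannot be told apart in any value below.

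Reads counted on genes ranged from 16078675 to 19137059 per sample, at which 1 read on a transcript of 1 kb equals 0.0523 to 0.0622 RPKM (reads per kilobase of gene, scaled to the library total). HE3 had the fewest reads and was the library least like the other 5. All of 11 stem and progenitor markers were expressed, which does not by itself establish progenitor identity. Markers of astrocytes were high as well, with 6 of them summing to 1320 to 1675 RPKM in NC and 895 to 1347 in HE. Sox2, a factor of neural progenitors, lay between 97.3 and 209 RPKM, and Nes, the filament protein nestin, between 154 and 247 RPKM.

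The fold changes come from limma fitted to log2(RPKM + 0.1) over 13952 genes, with p-values adjusted over all of them by the Benjamini-Hochberg method. A gene was called at a log2 fold change of at least 1 either way and an adjusted p below 0.05. In all, 0 of the 13952 genes were called (0%), and 2858 had an unadjusted limma p below 0.05 (20.5%, made up of 8.68% higher and 11.8% lower in HE). The study, with a count model and the same cutoffs, did report differentially expressed mRNAs, so this count holds for the fit used here. Of the 10 factors, 7 had enough reads to be tested, and 4 of these (Foxb1, Nkx2-2, Nkx2-4 and Six6) had an unadjusted limma p below 0.05 with higher levels in HE, where 8.68% of all tested genes had such a p in that direction. Six6 met the read filter through its 3 HE samples and NC1, so its place in this count carries no weight, and it dropped out with a pseudocount of 1 RPKM. The set also depended on the fit: with sample quality weights on RPKM it held 6 factors, among them the lower Nkx2-1, Six3 and Lhx2 and not Six6. In those 4 factors the HE and NC samples did not overlap, which was seen in the higher direction in 14.8% of the tested genes and in the lower direction in 17.9%. No factor with a lower mean in HE had groups that were apart. The log2 fold change was above 0 in 4 of the 7, as in 43.8% of all tested genes, at 1 or more in 2 (Foxb1 and Nkx2-4; 1.1% of all) and at -1 or less in 1 (Lhx2; 3.66% of all). The median log2 fold change of the 7 factors was 0.52, beside -0.06 over all tested genes, and it was -0.04 when 10 reads were required in every sample, which removes Six6.

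**Figure D1:**
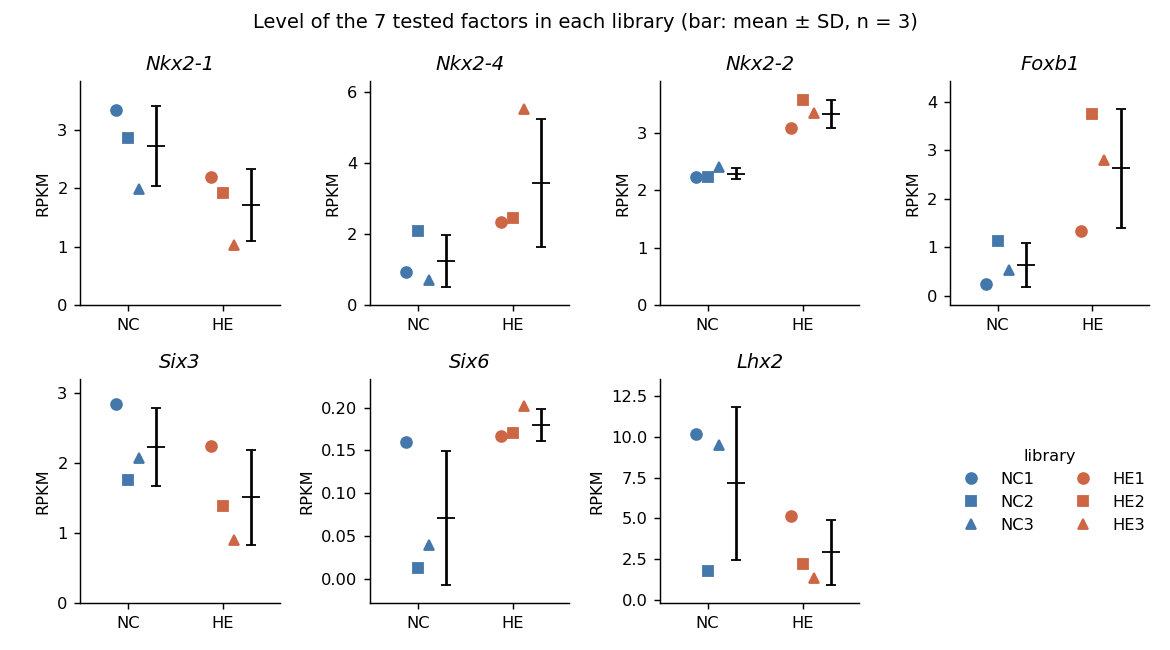
Level of each of the 7 tested factors (RPKM, linear axis) in the 3 NC libraries (blue) and the 3 HE libraries (orange), with symbols for the library number and a bar for the mean ± SD (n = 3). Nkx2-2 shows the tightest groups, and in Lhx2 the NC2 library at 1.77 RPKM stands far below NC1 and NC3.

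The NKX2 homeodomain factors were the clearest case of members of 1 family with unlike differences. Nkx2-1 (ENSMUSG00000001496; chromosome 12, 56531935 to 56536908, GRCm38.p6) specifies ventral hypothalamic identity and acts upstream of Pomc. Nkx2-4 (ENSMUSG00000054160; chromosome 2, 147083337 to 147085439) is its closest paralog and is expressed in overlapping hypothalamic territory. Nkx2-2 (ENSMUSG00000027434; chromosome 2, 147176485 to 147195434) marks a stripe beside the Nkx2-1 domain and is also used by the oligodendrocyte lineage.

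The stretches upstream of the starts of Nkx2-1 and Nkx2-4 are shown because these paralogs differed in opposite directions. Sequences are from RefSeq on GRCm38.p6, minus strand, 5′ to 3′, in lower case with a GC box (GGGCGG on either strand) in capitals. The first is chr12:56536909-56537158, the 250 bases before the start of Nkx2-1. The second is chr2:147085440-147085595, bases 250 to 95 before the promoter start of Nkx2-4. That start lies inside the span of Nkx2-4 given above, so the rest of its 250-base window is within the gene and is not printed.
Nkx2-1: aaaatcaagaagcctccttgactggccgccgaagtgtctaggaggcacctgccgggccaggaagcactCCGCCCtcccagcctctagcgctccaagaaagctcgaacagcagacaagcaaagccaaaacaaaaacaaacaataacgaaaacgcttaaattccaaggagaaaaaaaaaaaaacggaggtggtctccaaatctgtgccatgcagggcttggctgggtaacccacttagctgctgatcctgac
Nkx2-4: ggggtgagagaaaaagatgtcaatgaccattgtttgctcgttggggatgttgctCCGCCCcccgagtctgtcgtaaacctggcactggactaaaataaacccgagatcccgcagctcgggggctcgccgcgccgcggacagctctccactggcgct
The Nkx2-1 window had 1 GC box, 182 bases before the start, and a GC content of 50.8%. The 250-base window of Nkx2-4 had 3 GC boxes, at 196, 47 and 37 bases, of which the printed stretch holds the first, and a GC content of 70.4%. Over 32851 RefSeq promoters of the same length, 32.7% held a GC box and the median GC content was 52.4%, with quartiles of 45.2% and 61.2%. Promoters were matched for 8 of the 10 factors, in 9 windows, and on neither strand did any of the 9 hold the full palindromic estrogen response element, its half-site AGGTCA or the homeodomain core TAATTA, which were found in 0.0639%, 14% and 4.84% of all promoters. The NKX2 core CAAGTG (11.6% of all promoters) occurred in the Nkx2-2 window, 197 bases before its start. These are matches of letters in short windows and say nothing of binding.

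Nkx2-1 was measured at 3.34 RPKM in NC1, 2.87 in NC2 and 1.99 in NC3, and at 2.20 in HE1, 1.92 in HE2 and 1.03 in HE3. HE3 was the lowest sample, and the groups overlapped because NC3 lay below HE1. The mean was 2.73 ± 0.685 RPKM (SD, n = 3) in NC and 1.72 ± 0.612 in HE, with a log2 fold change of -0.67 (SE 0.32, limma adjusted p = 0.268, exact two-sided permutation p = 0.2). Without HE3 the log2 fold change was -0.36, and over the 6 fits that each left out 1 sample it ran from -0.88 to -0.36. The study picked Nkx2-1 and Six3 from these same libraries as lower in HE. It also reported both as lower in HE by quantitative PCR on the samples that were sequenced. Their direction here is therefore not independent evidence of that difference.

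Nkx2-4 was measured at 0.927 RPKM in NC1, 2.09 in NC2 and 0.704 in NC3, against 2.33 in HE1, 2.46 in HE2 and 5.52 in HE3. Every HE sample lay above every NC sample, by a narrow margin between NC2 and HE1, and HE3 was far above the other HE samples. The mean was 1.24 ± 0.744 RPKM in NC and 3.44 ± 1.80 in HE, with a log2 fold change of 1.42 (SE 0.46, limma adjusted p = 0.197, exact permutation p = 0.1). An exact p of 0.1 is the smallest that 3 samples against 3 can give. Read counts behind these levels were small, from 23 to 69 in NC and 72 to 153 in HE. HE3 was thus the lowest library for Nkx2-1 and the highest for Nkx2-4.

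Nkx2-2 was the steadiest factor within groups. It stood at 2.24 RPKM in NC1 and NC2 and 2.41 in NC3, and at 3.09 in HE1, 3.57 in HE2 and 3.35 in HE3. The groups did not overlap, with coefficients of variation of 4.18% in NC and 7.28% in HE, and the variance between samples was 0.219 and 0.938 times that of read counting alone. A spread below that of counting in 3 samples is not evidence of steadiness. The exact 95% intervals for counting error overlapped between NC3 (2.01 to 2.85 RPKM) and HE1 (2.63 to 3.61 RPKM). The mean was 2.29 ± 0.096 RPKM in NC and 3.34 ± 0.243 in HE, giving a log2 fold change of 0.52 (SE 0.14, limma adjusted p = 0.195, exact permutation p = 0.1). Leaving out any 1 sample left it between 0.47 and 0.57.

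Nkx2-2 lies 91046 bp from Nkx2-4 on chromosome 2, and both were higher in HE. Xrn2, an exoribonuclease gene 5337 bp from Nkx2-4, had values of 19.5, 19.1 and 19.5 RPKM in NC and 23.6, 21.6 and 24.8 in HE, with a log2 fold change of 0.26 (limma adjusted p = 0.221). RefSeq models of long non-coding RNAs overlap some of these genes: Nkx2-2os and 6430503K07Rik at Nkx2-2, Six3os1 at Six3, and Gm13584 and Gm27197 at Lhx2. They were not analysed here, and since the use of strand in counting is not given in the sources used here, reads from them may be counted within the factors.

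The other NKX2 paralogs were nearly silent. Nkx2-9, which neighbours Nkx2-1 and is active in the ventral midline, had 2, 3 and 4 reads in NC and 0 in all 3 HE samples, and it was too low to be tested. Nkx2-3, Nkx2-5 and Nkx2-6, genes of gut, heart and pharynx, had at most 3 reads in any sample.

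The contrast between paralogs was tested on the ratio of 2 factors within the same library, a quantity that library scaling touches only through the added 0.1 RPKM. Each ratio set a factor that was higher in every HE sample over one with a lower mean in HE. Its ordering of the groups therefore follows largely from the single factors and is not separate evidence. The log2 ratio of Nkx2-4 to Nkx2-1 was -1.74 in NC1, -0.44 in NC2 and -1.38 in NC3, and 0.08 in HE1, 0.34 in HE2 and 2.32 in HE3. By point estimate, Nkx2-1 was the higher of the pair in every NC library and Nkx2-4 in every HE library. The exact intervals for counting error of the paired levels overlapped in NC2, HE1 and HE2. In HE1 they were 1.82 to 2.94 RPKM for Nkx2-4 and 1.81 to 2.65 RPKM for Nkx2-1. The intervals of the pair were apart in NC1, NC3 and HE3. Overlap of separate intervals is not a test of a difference, so the order in NC2, HE1 and HE2 was not tested against counting error. The mean log2 ratio differed by 2.10 between the groups, with an exact permutation p of 0.1. All 4 ratios tested gave this p, so it was also 0.1 after Benjamini-Hochberg adjustment over them. The difference was 1.40 to 2.52 when 1 library was left out.

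The ratio of Nkx2-2 to Nkx2-1 gave the same ordering of groups on the log2 scale: it was -0.55 in NC1, -0.35 in NC2 and 0.26 in NC3, and 0.47 in HE1, 0.86 in HE2 and 1.61 in HE3. The difference was 1.19 (exact permutation p = 0.1), and these ratios share the Nkx2-1 values and are not separate evidence.

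**Figure D2:**
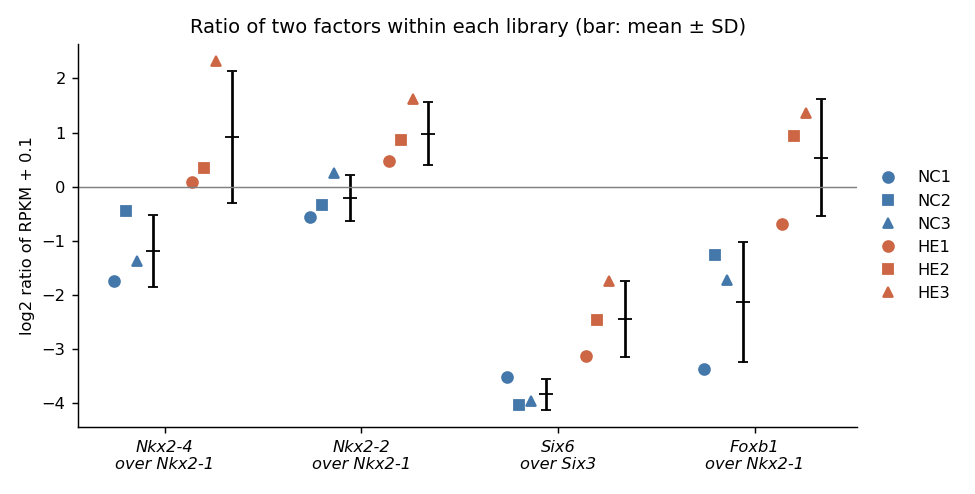
The log2 ratio of 2 factors in the same library (RPKM + 0.1 for each), for 4 pairs, with symbols for the library and a bar for the mean ± SD (n = 3). In each pair the HE libraries (orange) lie above the NC libraries (blue), with an exact permutation p of 0.1, the smallest that 3 against 3 can give. Each pair sets a factor that was higher in every HE library over one with a lower mean in HE. The ordering therefore follows largely from the single factors and is not separate evidence.

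Foxb1 (ENSMUSG00000059246; chromosome 9, 69757710 to 69760940) is needed for the mamillary body and its axon tract. It was at 0.232 RPKM in NC1, 1.14 in NC2 and 0.531 in NC3, and at 1.33 in HE1, 3.76 in HE2 and 2.79 in HE3. HE1 lay just above NC2 and far below HE2 and HE3, and the levels within each group differed several-fold. The mean was 0.634 ± 0.462 RPKM in NC and 2.63 ± 1.22 in HE, and the log2 fold change of 1.98 (SE 0.54, limma adjusted p = 0.195, exact permutation p = 0.1) was the largest of the 7 tested factors.

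Foxb1 was called in 1 of the 14 alternative fits, that with sample quality weights on RPKM, at a log2 fold change of 2.51 and an adjusted p of 0.0375 from limma. The reads behind it were 13, 65 and 30 in NC and 71, 214 and 134 in HE. With a pseudocount of 1 RPKM the log2 fold change was 1.13, as a larger constant shrinks the differences of low genes. Its ratio to Nkx2-1 differed by 2.65 on the log2 scale between the groups (exact permutation p = 0.1), with log2 ratios of -3.37, -1.26 and -1.73 in NC and -0.69, 0.94 and 1.36 in HE. The paralog Foxb2 had at most 3 reads in any sample.

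Six3 and Six6, sine oculis homeobox paralogs, also had estimates of opposite sign. Six3 (ENSMUSG00000038805; chromosome 17, 85613608 to 85626191) represses Wnt signals in the anterior forebrain, and it was at 2.85 RPKM in NC1, 1.76 in NC2 and 2.07 in NC3, and at 2.24 in HE1, 1.39 in HE2 and 0.902 in HE3. HE1 stood above NC2 and NC3, so the groups overlapped. The mean was 2.23 ± 0.561 RPKM in NC and 1.51 ± 0.675 in HE, with a log2 fold change of -0.59 (SE 0.34, limma adjusted p = 0.324, exact permutation p = 0.3). It was -0.29 without HE3 and -0.90 without HE1.

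Six6 (ENSMUSG00000021099; chromosome 12, 72939882 to 72944899), which acts in the eye, pituitary and in the neurons of gonadotropin-releasing hormone, was close to the limit of detection. Its reads were 12 in NC1, 1 in NC2 and 3 in NC3, and 12 in HE1, 13 in HE2 and 13 in HE3. NC1 matched the HE samples, and the RPKM values, 0.159, 0.013 and 0.0395 in NC and 0.167, 0.170 and 0.202 in HE, were apart by the smallest of margins, NC1 and HE1 having the same 12 reads in libraries of different size. The gene entered the test through the HE samples and NC1, and its log2 fold change was 0.80 (SE 0.34, limma adjusted p = 0.244, exact permutation p = 0.1). Summed over the samples, the rate of reads was 2.54 times as high in HE, with a 95% exact interval of 1.39 to 4.89 that covers counting error only.

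NC1 also held far more pituitary transcripts than the other samples. Gh, the growth hormone gene, had 716 reads in NC1 and at most 3 in the others, Prl had 18 and 0, and Pomc had 5717 in NC1 and 25 to 75 in the others. The 10 pituitary markers summed to 46.6 RPKM in NC1, to 0.185 and 0.285 in NC2 and NC3, and to between 0.271 and 0.318 in HE, with Hesx1 and Cga at 3 reads or fewer in every sample. Without NC1 the log2 fold change of Six6 was 1.15 (limma adjusted p = 0.502), and the part of pituitary cells in the NC1 value was not tested. The log2 ratio of Six6 to Six3 was -3.51, -4.04 and -3.96 in NC and -3.13, -2.46 and -1.73 in HE. The difference was 1.39 (exact permutation p = 0.1), and 0.53 with a pseudocount of 1 RPKM (exact permutation p = 0.2). In NC2 and NC3 the Six6 level was below the added 0.1 RPKM, so the ratio there rests largely on that constant and on Six3. This ratio therefore carries no weight as evidence. Of their paralogs, Six4 had a log2 fold change of -0.12 and Six5 of -0.65, with limma adjusted p-values of 0.864 and 0.322, and Six2 was too low to be tested.

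Lhx2 (ENSMUSG00000000247; chromosome 2, 38339271 to 38369737) had the highest mean RPKM of the 10 factors over all samples, and its samples had the largest SD. Within HE its mean of 2.92 RPKM was below those of Nkx2-4 (3.44) and Nkx2-2 (3.34). It was at 10.2 RPKM in NC1, 1.77 in NC2 and 9.49 in NC3, and at 5.17 in HE1, 2.23 in HE2 and 1.36 in HE3. NC2 fell between HE2 and HE3, so that 1 control library looked like the lower HE libraries. The mean was 7.14 ± 4.66 RPKM in NC and 2.92 ± 2.00 in HE, with a log2 fold change of -1.12 (SE 0.73, limma adjusted p = 0.378, exact permutation p = 0.3).

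The variance of Lhx2 between samples was 256 times the counting variance in NC and 103 times in HE. Leaving out NC2 gave a log2 fold change of -1.92, and leaving out NC1 gave -0.69. Its reads ran from 149 to 838 in NC and from 96 to 407 in HE.

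NC2 and HE2 were also set apart by factors of more caudal or dorsal brain. Irx1, Irx2 and Irx3, Iroquois homeobox genes used from the thalamus backwards, were highest in these libraries: Irx1 was at 17.3 RPKM in NC2 and 16.4 in HE2 and at 7.57 to 8.96 in the other 4. Irx2 was at 11.8 and 10.3 RPKM in NC2 and HE2 and at 3.31 to 5.5 elsewhere. The 20 thalamic, midbrain and hindbrain factors summed to 54.1 RPKM in NC2 and 40.4 in HE2, and to 18.0 to 22.6 in the other libraries, with 5 Hox genes of the list at 3 reads or fewer in every sample. In all, 10 of the 20 were tested, 6 with a higher and 4 with a lower mean in HE, and 0 had an unadjusted limma p below 0.05. The part of such cells in the Lhx2 values was not tested.

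**Figure D3:**
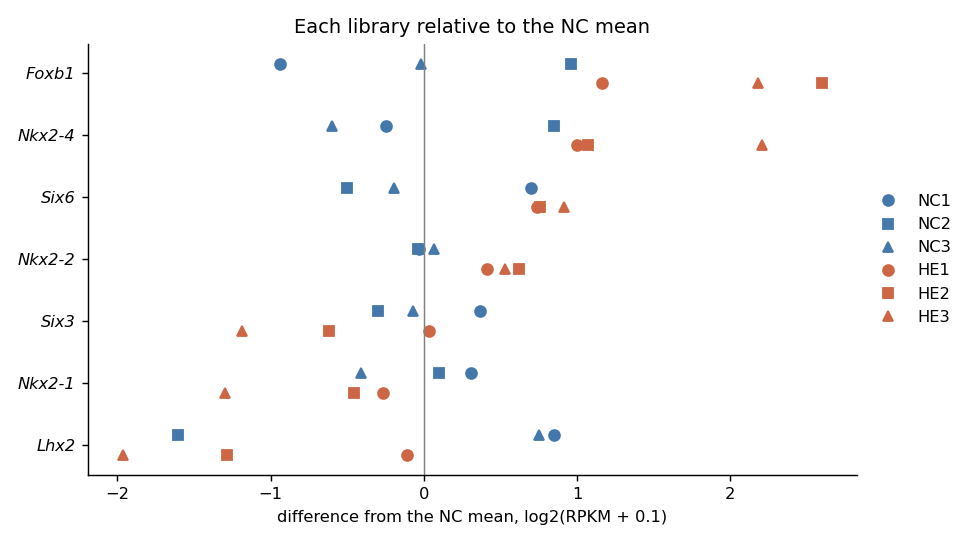
Difference of each library from the NC mean on the log2(RPKM + 0.1) scale, for the 7 tested factors, with NC libraries in blue and HE libraries in orange. The HE libraries lie to the right of all NC libraries for Foxb1, Nkx2-4, Six6 and Nkx2-2, and the NC2 library of Lhx2 lies with HE2 and HE3.

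Rax, Sim1 and Otp could not be tested. Rax, a homeobox factor of the eye field, the infundibulum and tanycytes, had 2, 1 and 3 reads in NC and 2, 8 and 3 in HE. Only HE2 exceeded 3 reads, and the rate ratio of HE to NC over the summed reads was 2.32 with a 95% exact interval of 0.823 to 7.45. Sim1, a factor of paraventricular neurons, had 1, 2 and 2 reads in NC and 3, 1 and 4 in HE, a rate ratio of 1.71 with an interval of 0.495 to 6.66. Both intervals include 1, so no difference was detectable at this depth.

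Otp, a homeobox factor needed for several neuroendocrine cell types, had 1 read in NC1 and 0 in the other 5 samples. A count of 0 allows up to 3 reads, which for Otp is 0.0544 to 0.0648 RPKM in these 5 samples. The order of Rax, Sim1 and Otp is not resolved at such counts.

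Ordered by mean RPKM over the 6 samples, Lhx2 (5.03) came first, then Nkx2-2 (2.82), Nkx2-4 (2.34), Nkx2-1 (2.22), Six3 (1.87) and Foxb1 (1.63), with Six6 (0.125), Rax (0.103), Sim1 (0.0166) and Otp (0.00308) well below. From Lhx2 to Foxb1 each factor overlapped the next over the 6 samples. Foxb1, at 0.232 RPKM or more, lay above Six6, at 0.202 or less, and the 4 factors from Six6 to Otp again overlapped from each to the next. Lhx2 lay at the 66.1 percentile of all 22048 genes by mean RPKM and Otp at the 11.2 percentile.

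The sum of the 10 factors did not differ between the groups beyond the spread, at 16.4 ± 4.12 RPKM in NC and 15.9 ± 0.668 in HE (exact permutation p = 0.8), whereas its make-up varied. Lhx2 made up 50.8%, 14.9% and 54.7% of the sum in NC1, NC2 and NC3, and 31.1%, 14.2% and 8.88% in HE1, HE2 and HE3. Nkx2-4 made up 4.63%, 17.5% and 4.06% in NC and 14%, 15.6% and 36.1% in HE. The share of Foxb1 was 1.16%, 9.55% and 3.06% in NC and 8.00%, 23.9% and 18.3% in HE, so that NC2 exceeded HE1.

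**Figure D4:**
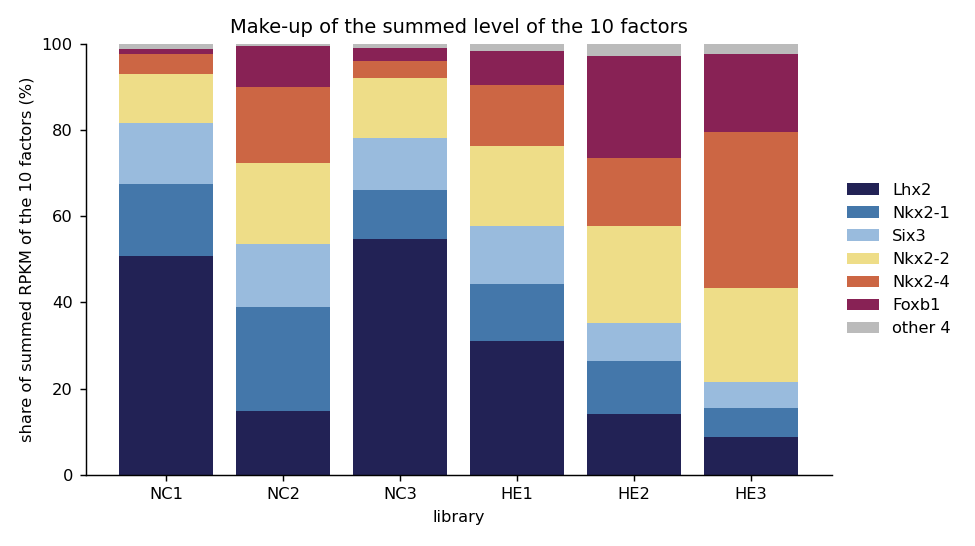
Share of each factor in the summed RPKM of the 10 factors (stacked bars, percent, from 0 to 100) in each of the 6 libraries. Lhx2 takes 50.8% in NC1 and 54.7% in NC3 but 14.9% in NC2, and Nkx2-4 takes 36.1% in HE3.

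Single libraries weighed on several of these differences. Among the 7 tested factors, HE3 was the lowest sample for 3 and the highest for 2, and NC1 was the highest for 3. The direction of each factor was the same in all 6 fits that left out 1 sample, while the log2 fold change ranged from 1.51 to 2.46 for Foxb1, from 1.03 to 1.85 for Nkx2-4 and from 0.55 to 1.15 for Six6.

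**Figure D5:**
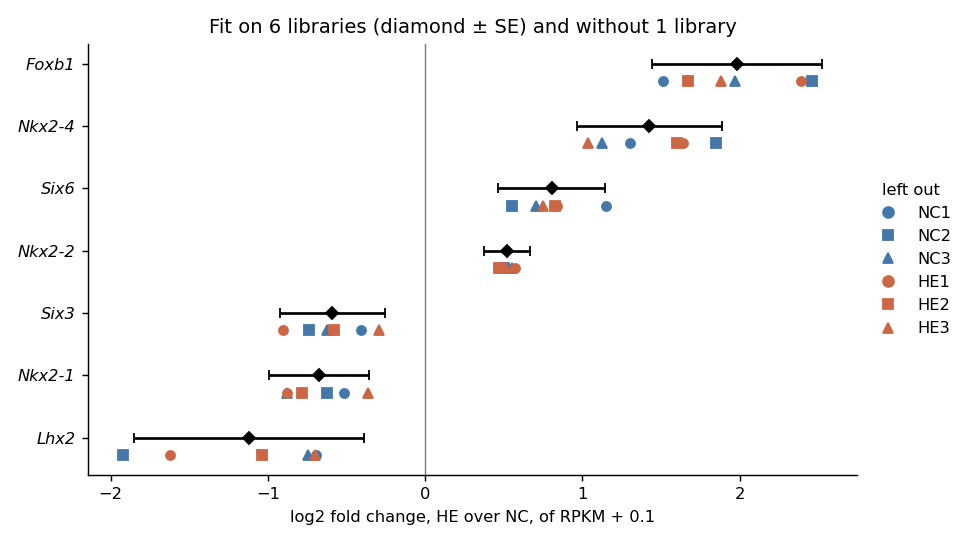
Log2 fold change of HE over NC for the 7 tested factors in the fit on 6 libraries (black diamond ± SE) and in the fits without 1 library (symbol of the library left out). No point crosses 0, and Lhx2 moves most, to -1.92 without NC2.

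Beside the 10 factors stood 30 other factors of the hypothalamus and ventral forebrain, of which 15 were tested, 7 with a higher and 8 with a lower mean in HE, and their median was -0.09 (log2 fold change; -0.26 to 0.05 over the alternatives). Of these, 1 had an unadjusted limma p below 0.05 in the higher direction (8.68% of all tested genes) and 2 in the lower (11.8%), and none was called. Fezf1, a zinc finger factor of the ventromedial hypothalamus, was at 0.0657 to 0.221 RPKM in NC and 0.255 to 0.305 in HE. Fezf2, its paralog in the forebrain, was at 1.77 to 3.56 RPKM in NC and 1.12 to 2.18 in HE. Pou3f2 and Arnt2, which serve neuroendocrine neurons together with Sim1, were well expressed, with log2 fold changes of -0.52 and 0.07 and limma adjusted p-values of 0.255 and 0.725. The study picked Fezf2 and Pou3f2, like Nkx2-1, from these same libraries and reported them as lower by quantitative PCR on the same samples. Their direction here is not independent evidence.

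Of 11 patterning ligands, 8 were tested, 1 with a higher and 7 with a lower mean in HE (median of the log2 fold changes, -0.49, and -0.14 without HE3, -0.81 without HE1 and -0.77 without HE2). An unadjusted limma p below 0.05 was seen in 1 in each direction (8.68% of all tested genes higher, 11.8% lower). The summed level of the 11 was higher in HE, at 17.3 to 18.5 RPKM in NC and 21.5 to 24.1 in HE. Bmp7, a secreted BMP of the ventral midline and prechordal plate, was at 4.26, 3.15 and 6.99 RPKM in NC and 8.94, 10.9 and 13.6 in HE. The groups were apart (14.8% of all tested genes in the higher direction), with a log2 fold change of 1.26 (limma adjusted p = 0.195). Wnt8b, a Wnt of the dorsal forebrain and caudal hypothalamus, had a log2 fold change of -0.99 (limma adjusted p = 0.214). Shh, the inducer of Nkx2-1, was at 0.111 RPKM or less in every sample and could not be tested.

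Of 16 hypothalamic neuropeptide genes, 15 were in the table and 5 were tested, 1 with a higher and 4 with a lower mean in HE (median of the log2 fold changes, -0.99). An unadjusted limma p below 0.05 was seen in 2 of the lower (11.8% of all tested genes in that direction). Cartpt, which encodes the CART peptide, was at 11.2, 25.1 and 4.65 RPKM in NC and 1.98, 1.86 and 2.28 in HE, a log2 fold change of -2.37 (limma adjusted p = 0.195). Gnrh1, the gene of gonadotropin-releasing hormone, was at 1.84, 1.30 and 2.03 RPKM in NC and 0.965, 0.906 and 0.597 in HE, a log2 fold change of -0.99 (limma adjusted p = 0.195). Both genes had NC samples that were all above the HE samples, as had 17.9% of all tested genes. Pomc, which is also a gene of the pituitary, was at 302 RPKM in NC1, the library with the high Gh and Prl counts, and at 1.54 to 3.89 in the others. Without NC1 the median of the list was -0.59.

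Of 11 tanycyte genes, 9 were tested, 4 with a higher and 5 with a lower mean in HE, and 2 in each direction had an unadjusted limma p below 0.05 (8.68% of all tested genes higher, 11.8% lower). The median of their log2 fold changes was -0.62 but 0.09 when every gene with 1 read was kept, and it was -0.40 without NC1, -0.29 without HE2 and -0.30 without HE3. Dio2, the deiodinase that activates thyroid hormone, had a log2 fold change of -1.88 (limma adjusted p = 0.205) and, like Lhx2, was low in NC2, at 0.809 RPKM beside 3.65 in NC1 and 2.91 in NC3. Nnat, neuronatin, was high throughout, at 198 to 256 RPKM in NC and 291 to 327 in HE, and Gpc3, a glypican, had a log2 fold change of 1.68 (limma adjusted p = 0.195).

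Of 14 telencephalic factors, 9 were tested, 1 with a higher and 8 with a lower mean in HE, and 1 of the lower had an unadjusted limma p below 0.05 (11.8% of all tested genes in that direction). The median of their log2 fold changes was -0.85, and it was -0.44 without HE3, -1.35 without NC2 and -1.31 without HE1. Emx2, a homeobox factor of the dorsal telencephalon, was at 5.02, 2.04 and 3.94 RPKM in NC and 1.66, 1.15 and 0.974 in HE. Dlx1, of the ventral telencephalon, was at 4.69, 0.649 and 1.70 RPKM in NC and 1.12, 0.622 and 0.0922 in HE. The study also picked Dlx1 from these same libraries as lower in HE, so its direction here is not independent evidence. In Emx2 and Dlx1, as in Lhx2, NC2 was the lowest of the NC libraries. For Emx2 it still lay above every HE library, an order of the groups seen in 17.9% of all tested genes. The summed level of the 14 factors ran from 9.56 to 20.8 RPKM in NC and from 5.31 to 9.83 in HE. The part of telencephalic cells in the Lhx2 values was not tested.

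Summed markers of some other cell types also had different ranges in the groups. All 7 tested mesenchymal markers had a higher mean in HE, 3 of them with an unadjusted limma p below 0.05 (8.68% of all tested genes in that direction). The 8 markers summed to 33.3 to 94.8 RPKM in NC and 80.5 to 171 in HE. Col3a1, a fibrillar collagen, was at 12.2 to 43.3 RPKM in NC and 45.7 to 92.7 in HE, and Twist1, a mesenchymal factor, at 0.873 to 0.98 and 2.19 to 3.93. The 8 microglial markers summed to 0.377 to 0.882 RPKM in NC and 1.72 to 9.19 in HE, with C1qb, a complement gene, at 0.0979 or less and at 0.578 to 2.00. The 6 endothelial markers summed to 2.47 to 3.42 RPKM in NC and 4.12 to 5.23 in HE. Of the 3 that were tested, Cdh5, VE-cadherin, was at 0.341 to 0.755 and 1.66 to 2.75 RPKM, while Kdr and Flt1, receptors for VEGF, had log2 fold changes of 0.55 and -0.20 and overlapping samples. None of these markers was at 0 in all 6 samples, and the part of these cells in the values of the 10 factors was not tested.

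Among the neural lists, 3 of the 11 stem and progenitor markers were higher and 8 lower in HE on average (median of the log2 fold changes, -0.26). Only the membrane protein gene Prom1, lower in HE, had an unadjusted limma p below 0.05 (11.8% of all tested genes in that direction). The HE and NC samples of 4 markers did not overlap, all lower in HE (17.9% of all tested genes). The 9 neuronal markers were split 3 to 6 (median -0.13). An unadjusted limma p below 0.05 was seen in 2 of the higher (8.68% of all tested genes in that direction) and 0 of the lower. The groups were apart in 3, all higher in HE (14.8% of all tested genes). Map2, of the neuronal cytoskeleton, was at 16.6 to 17.3 RPKM in NC and 22.3 to 26.4 in HE. Elavl3, a neuronal RNA-binding protein gene, was at 4.13 to 6.51 RPKM in NC and 1.79 to 4.79 in HE. The 6 astrocyte markers were split 2 to 4 (median -0.32) and summed to 1320 to 1675 RPKM in NC and 895 to 1347 in HE. Gfap, the astrocyte filament gene, was at 624 to 754 RPKM in NC and 195 to 650 in HE, while S100b, a calcium-binding protein gene, was at 5.42 to 9.30 and 10.6 to 15.5. Of the 9 oligodendrocyte lineage markers, 8 were tested, 2 higher and 6 lower, and their summed level was 291 to 321 RPKM in NC and 315 to 515 in HE. Olig1, a factor of that lineage, where Nkx2-2 is used as well, was at 134 to 140 RPKM in NC and 143 to 312 in HE, highest in HE3, while Mbp, a myelin gene, was at 11.8 to 22.2 and 1.79 to 14.8 and lowest in HE3. Of 8 retinal and pigment epithelial markers 2 were tested, with log2 fold changes of 0.38 for Mitf and -0.42 for Pmel.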

How the data were processed

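Values came from 1 deposited table of 22048 genes in 3 HE and 3 NC samples. The authors filtered reads, aligned them with TopHat2 to the mouse genome (mm10, with CASAVA 1.7 also named, per the submitters' processing notes), and deposited a read count per gene, not normalized and written with commas between digits, and RPKM computed by the authors from count, gene length and library total. The counting tool, the annotation and the use of strand are not given in the sources used here, and the methods and the labels name different sequencers. RPKM followed that formula to within 4.99e-07.

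The test was limma's trend method (version 3.58.1, R 4.3.3) on log2(RPKM + 0.1), group as the only term and Benjamini-Hochberg adjustment over 13952 genes. Fold changes on that scale understate those of low genes. Genes entered the test with 15 or more reads in total and, in 3 or more samples, the equivalent of 10 reads at median depth. The count model used by the study was not run here. The main test used RPKM, and limma's voom on the reads, with the commas removed, was an alternative. Single values used exact two-sided permutation over the 20 assignments of 6 samples, with smallest p of 0.1. Exact 95% intervals and the floor of 3 reads cover counting error only, and no molecular identifiers are named. Samples were pools of 2 mice, and p-values measure only the spread between these samples.

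The members and the gene lists were chosen with earlier results of these data known. Genes named beside the 10 members were the 3 of highest level and the 3 of smallest p in each list, not all of which are printed. Untested paralogs, Shh, the untested pituitary genes and the neighbour Xrn2 were named after their values were seen. Alternatives were a pseudocount of 1, median-of-ratios scaling, 2 other filters, the replicate number as a block, sample quality weights, voom and leaving out each sample. Symbols, coordinates and promoters are from RefSeq tables of GRCm38.p6. Some results for single genes are not reported here.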

Additional observations from a re-analysis of the deposited data

How the results depend on the processing

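Each of the 7 tested factors kept its direction under every alternative that could be fitted, 14 for 6 of them and 13 for Six6, which fails a filter of 10 reads in every sample. The count of genes called was 0 except with sample quality weights on RPKM (268), voom with sample quality weights (113) and without NC3 (103), so that leaving out 1 sample gave 0 to 103, and the cause was not tested. The weight of HE3 was 0.158 on RPKM and 0.179 in voom. The count of factors called was 0 except with sample quality weights on RPKM, where it was 1 (Foxb1), and leaving out 1 sample gave 0 to 0. Nkx2-2 then had a limma adjusted p of 0.0392 and a log2 fold change of 0.57, under the fold required. Six6 moved most, from 0.14 with a pseudocount of 1 to 1.80 in voom on the log2 scale. Median-of-ratios scaling moved the median of all genes from -0.06 to -0.00. The median of the neuropeptide genes was -2.59 with 10 reads in every sample.

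Same-numbered samples deviated together with correlations of 0.156, 0.087 and 0.060, and every sample correlated best with its own number, a hint from the data and not from the design. The numbers were not taken as pairs. With the replicate block 0 genes were called, the lowest adjusted p was 0.056, 5 factors had an unadjusted limma p below 0.05 (Foxb1, Nkx2-1, Nkx2-2, Nkx2-4 and Six3), and the 4 ratios between factors kept their differences at a sign-flip p of 0.25, the smallest 3 pairs can give. At 16078675 to 19137059 reads per library, depth limits Six6, Rax, Sim1 and Otp.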
